A study of Mus musculus with 2 samples.

Results

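The Mir322-Mir503-Mir450 cluster is a group of 7 microRNA (miRNA) precursors, Mir322, Mir503, Mir351, Mir542, Mir450-2, Mir450-1 and Mir450b, that lie close together on 1 strand of the mouse X chromosome. Its members were chosen by name, as the genes of the deposited tables whose Ensembl identifier carries 1 of these symbols in the GENCODE M21 annotation of mm10 (GRCm38), and all 7 were found among 1973 genes. The tissue was whole stomach of mouse embryos of strain B6NCrl, a C57BL/6N line, at 14.5 days of development, with no treatment and no engineered allele in any label. Small RNA under 30 nt was sequenced from total RNA of 2 biological replicates, which the labels describe as single stomachs from embryos collected on different days, while giving the sex of both as pooled male and female. No condition varied, so the libraries can be compared with each other and not between conditions, and the replicate and the collection day are the same split.

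A miRNA is cut from a hairpin precursor and guides the silencing machinery to messenger RNAs, mainly through its seed, bases 2 to 8 from the 5′ end. Clustered precursors such as these are commonly cut from a shared primary transcript. In mouse myoblasts, miR-322 and miR-503 are known to rise as cells leave the cell cycle and to lower the cell cycle phosphatase Cdc25a. In human cells, miR-542-3p is known to repress survivin, an inhibitor of cell death.

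The mature sequences show which members could act on the same targets and which could be told apart by their reads, so the arm of each precursor usually taken as its guide is printed here 5′ to 3′ with its seed in capitals, from RefSeq on GRCm38.p6. The tables count reads per precursor and do not say which arm a read came from.
miR-322-5p: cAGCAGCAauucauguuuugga
miR-503-5p: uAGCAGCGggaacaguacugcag
miR-351-5p: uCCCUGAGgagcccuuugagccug
miR-542-3p: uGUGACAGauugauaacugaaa
miR-450a-5p, from Mir450-1 and from Mir450-2: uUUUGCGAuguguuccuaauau
miR-450b-5p: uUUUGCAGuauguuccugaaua

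Counted from base 1 at the 5′ end, miR-322-5p and miR-503-5p shared the stretch from base 2 to 7 and parted within the seed at base 8, as A8G with miR-322-5p as the reference. The seed of miR-351-5p is that of miR-125, and the seeds of miR-542-3p, miR-450a-5p and miR-450b-5p matched no arm of a precursor outside the cluster in the RefSeq table. miR-450a-5p and miR-450b-5p had 15 of 22 positions in common, and their seeds differed at G7A and A8G with miR-450a-5p as the reference. Each printed arm was found whole in 1 precursor of GENCODE M21, except miR-450a-5p, which was found in 2, Mir450-1 and Mir450-2.

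That exception bears on what the tables could hold for these precursors. Reads that map to several places were set aside by the authors, 2263676 in replicate 2 and 2437052 in replicate 1, and belong to no gene. A read of the whole miR-450a-5p arm maps to both copies, so it could be counted for neither. Matches of this kind were looked for in annotated precursors and not in the rest of the genome. The 3′ arms of the family, printed because they can separate the copies, were each found in a single precursor.
miR-450a-2-3p, from Mir450-2: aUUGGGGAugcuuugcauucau
miR-450a-1-3p, from Mir450-1: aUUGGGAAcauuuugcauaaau
miR-450b-3p, from Mir450b: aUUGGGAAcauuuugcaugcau
The arms of Mir450-1 and Mir450b were identical from base 1 to base 18 and differed at A19G and A20C, with Mir450-1 as the reference. The counts of Mir450-1 and Mir450-2 are therefore uncertain and, if each read was placed at its own precursor, are lower limits on their reads. A read of bases 1 to 18 of the 3′ arm alone would fit both Mir450-1 and Mir450b, so the count of Mir450b could also miss reads.

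The precursors were annotated on the minus strand of chromosome X in mm10, outside any other gene of GENCODE M21 on that strand. In the direction of the strand Mir322 (ENSMUSG00000065418.1, 53054255 to 53054349) came first, followed by Mir503 (53053984 to 53054054) after a gap of 200 nt and Mir351 (53053255 to 53053353) after 630 nt. A longer gap of 3767 nt, in which GENCODE places the long non-coding RNA gene Gm28730, led to Mir542 (53049403 to 53049487). Mir450-2 (53048299 to 53048367), Mir450-1 (53048154 to 53048244) and Mir450b (53047997 to 53048078) followed, the last starting 6271 nt after Mir322. RefSeq on GRCm38.p6 gives a long non-coding RNA, C430049B03Rik, from 53053112 to 53057190, which spans Mir322, Mir503 and Mir351 and none of the other 4. In GENCODE M21 the gene of that symbol ends upstream of Mir322, and the protein-coding neighbours are Plac1 upstream and Hprt, on the other strand, downstream.

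The gene counts of the libraries summed to 4679914 in replicate 2 and 5004548 in replicate 1, and levels are counts per 1000000 gene counts (CPM), a share of the counted miRNA and not an amount per cell. Had a gene no count, its level could still reach 0.641 CPM in replicate 2 or 0.599 CPM in replicate 1, a limit that like all intervals here covers counting error alone. All 7 members had 10 or more counts in both libraries, the minimum for calling a gene detected, and none had a count on the opposite strand. Markers of the labelled tissue were present, with summed levels of 146512 and 164146 CPM for the 2 smooth muscle genes, 41482 and 41439 CPM for the 5 epithelial genes and 4678 and 5552 CPM for Mir375 of stomach epithelium and endocrine cells (replicate 2 and replicate 1). Markers of other tissues were low, with 10.5 and 17.4 CPM over the 5 counted genes of striated muscle, of which Mir133a-1 and Mir133a-2 were at 0, 65.8 and 56.7 CPM for Mir122 of liver, and 1.92 and 2.40 CPM over the 5 counted neural genes, of which Mir124a-1, Mir124a-2 and Mir9-2 were at 0. Mir1a-2 and Mir9-1 of these lists are not analysed here. Numbered copies in these lists, such as Mir133a-1 and Mir133a-2 or Mir124a-1 and Mir124a-2, could lose whole reads of a shared arm as described above. Arm sharing was not looked up for them. Low or 0 counts of such copies therefore do not show that muscle or neural cells were absent.

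The cluster was abundant in the embryonic stomach, and most of its counts came from 1 precursor. Its members together reached 22718 CPM in replicate 2, against 23482 CPM in replicate 1, or 2.31% ± 0.054 of all gene counts (SD, n = 2). Mir322, whose mature arm carries the seed of the miR-15 and miR-16 family of cell cycle regulators, held 70.1% of the cluster's counts in replicate 2 (95% interval 69.8 to 70.3, Clopper-Pearson) and 73.5% in replicate 1 (73.3 to 73.8). Mir351 followed with 21.5% (21.3 to 21.8) in replicate 2 and 17.8% (17.6 to 18.0) in replicate 1. The other 5 precursors made up the rest.

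In counts, Mir322 had 74492 in replicate 2 and 86432 in replicate 1, or 15917 and 17271 CPM, and ranked 15th of all genes by mean level (16594 ± 957 CPM, SD, n = 2). Mir351, the member with the miR-125 seed, had 22887 and 20897 counts, or 4890.5 CPM in replicate 2 and 4176 CPM in replicate 1. Its mean was 4533 ± 505 CPM. Its level in replicate 2 was the higher, the reverse of the order of Mir322.

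Mir503, the closest relative of Mir322 within the cluster by seed and its nearest neighbour, had 4035 counts in replicate 2 and 4522 in replicate 1, or 862 and 904 CPM. Mir542, the source of the survivin repressor miR-542-3p, had 3818 and 4339 counts, or 816 CPM in replicate 2 and 867 CPM in replicate 1. These 2 members had nearly the same level, although they start 295 nt and 4862 nt after Mir322.

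Mir450b had 919 counts in replicate 2 and 1071 in replicate 1, or 196 and 214 CPM. Mir450-1 had 120 and 149 counts, or 25.6 CPM in replicate 2 and 29.8 CPM in replicate 1. Mir450-2 had 48 and 105 counts, or 10.3 CPM in replicate 2 and 20.98 CPM in replicate 1, the lowest values of the cluster. The last 2 are the copies whose shared arm could go uncounted, so their place below Mir450b describes the countable reads alone.

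**Figure D1:**
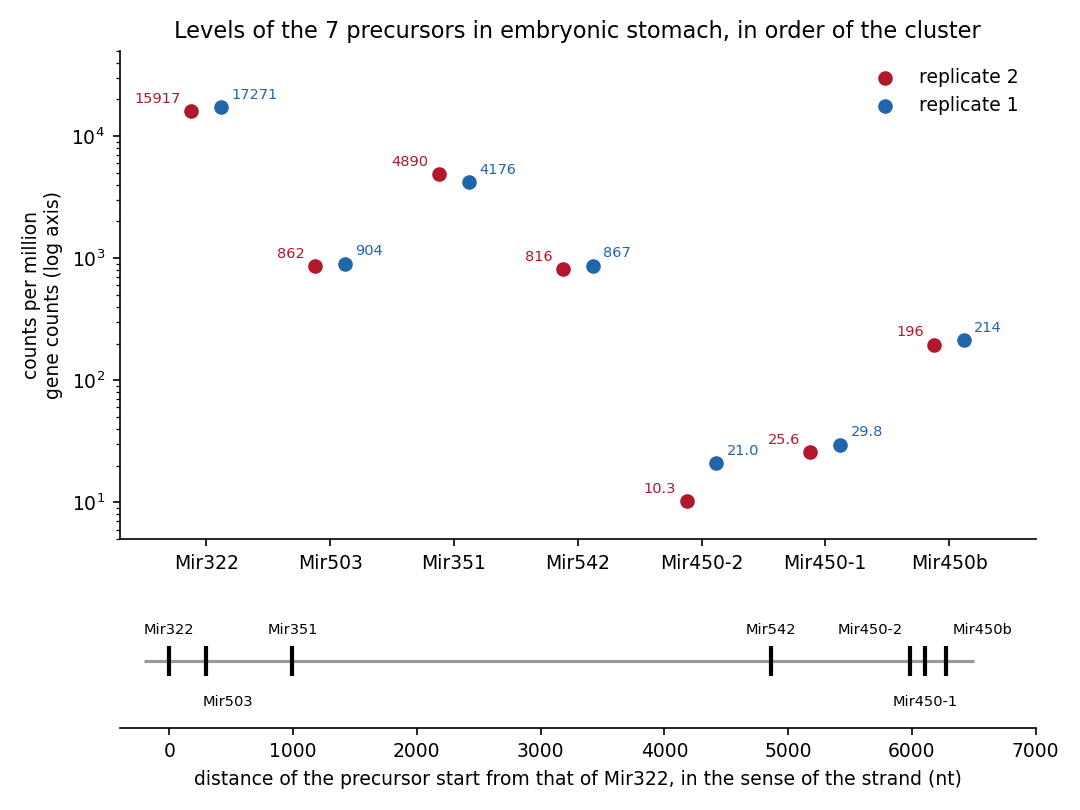
The upper panel plots the level of each precursor in CPM on a log axis, 1 point per library, replicate 2 in red left of replicate 1 in blue. The lower panel gives the start of each precursor as a distance in nt from that of Mir322. Levels ran from 15917 and 17271 CPM for Mir322 to 10.3 and 20.98 CPM for Mir450-2, and Mir351 was higher than Mir503 and Mir542 on either side of it.

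The order of levels was Mir322, Mir351, Mir503, Mir542, Mir450b, Mir450-1 and Mir450-2, the same in both libraries. The 4 members nearest the start of the cluster were the highest and the 3 farthest along the strand the lowest. Within these groups the orders of level and position parted, since Mir351 was higher than Mir503 before it. Mir450b was also higher than Mir450-2 and Mir450-1 before it, the 2 copies whose shared arm could go uncounted. Reads of this assay cover a mature miRNA whatever the length of its precursor, and dividing by precursor length left the order as it was. On that scale, mean CPM per 100 nt of precursor was 17467 for Mir322, 4579 for Mir351, 1243.5 for Mir503, 989.9 for Mir542 and 250.2 for Mir450b. It was 30.4 for Mir450-1 and 22.6 for Mir450-2.

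Mir322 exceeded Mir351 by a log2 ratio of 1.88 ± 0.24 (SD over 2 libraries), or 3.67-fold. Mir351 in turn exceeded Mir503 by 2.36 ± 0.21, a 5.12-fold difference. Among pairs next to each other in level, Mir503 and Mir542 were the pair whose CPM ranges over the 2 libraries overlapped. The CPM of Mir542 in replicate 1 was above that of Mir503 in replicate 2, although Mir503 was the higher within each library, by a log2 ratio of 0.07 ± 0.01. Of the counts of that pair, Mir503 held 51.4% in replicate 2 (95% interval 50.3 to 52.5) and 51.0% in replicate 1 (49.99 to 52.1), so counting error alone covers an even split in replicate 1.

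Further down, Mir542 exceeded Mir450b by a log2 ratio of 2.04 ± 0.03, or 4.10-fold. Mir450b exceeded Mir450-1 by 2.89 ± 0.06, or 7.42-fold in countable reads. The last step, Mir450-1 over Mir450-2, was 0.91 ± 0.58, of which replicate 2 had 1.32 and replicate 1 had 0.50. With 2 libraries no exact test over samples could pass a threshold of 0.05, and none is given for these steps.

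Some ratios within the cluster were nearly constant between the libraries and others were not. The log2 ratio of Mir322 over Mir450b was 6.34 in replicate 2 and 6.33 in replicate 1, a difference of about 81-fold between members at opposite ends of the cluster. Mir322 over Mir542 gave 4.29 and 4.32, and Mir322 over Mir503 gave 4.21 and 4.26. By contrast, Mir322 over Mir351 gave 1.70 in replicate 2 and 2.05 in replicate 1. The ratio of Mir322 to Mir450-2 was 10.60 in replicate 2 and 9.69 in replicate 1 on that scale, with no more than 105 counts of Mir450-2 behind either.

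To ask how far the members differed between the libraries, the counts of all 361 detected genes were tested by a two-sided exact binomial test per gene with Benjamini-Hochberg adjustment, which compares these 2 libraries and not conditions. Of the 7 members, 4 passed an adjusted p of 0.05, against 42.1% of the genes tested. In replicate 2 Mir351 was higher, against 24.7% of genes tested, and Mir322, Mir542 and Mir450-2 were lower, against 17.5%. The scaling moved this count: with edgeR's TMM factors or DESeq2's size factors 6 members passed, 1 higher and 5 lower in replicate 2. Over all genes, 89 were called higher and 63 lower in replicate 2, against 74 and 94 with TMM factors and 58 and 115 with size factors. The median log2 ratio of replicate 2 over replicate 1 was -0.12 for the members and 0.04 for all detected genes. In bulk tissue, fewer cells of a type and less RNA per cell cannot be told apart.

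Mir351 had a log2 ratio of 0.23 (95% interval 0.20 to 0.26), with an adjusted p of 4.19e-60 in the exact test. Mir322 had one of -0.12 (-0.13 to -0.10), with an adjusted p of 9.23e-59 in the same exact test. These p-values come from the large counts behind small differences. For the 196 genes that reached 100 CPM, the 5th and 95th percentiles of the log2 ratio were -0.26 and 0.41, and the 5 members of that level all lay between them. Mir542 passed at -0.09 (-0.15 to -0.02), with an adjusted p of 0.0160 in the exact test. Mir503 at -0.07 (adjusted p = 0.0672), Mir450b at -0.12 (adjusted p = 0.113) and Mir450-1 at -0.22 (adjusted p = 0.377) did not pass the same exact test.

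With an absolute log2 ratio of 1 or more as a second threshold, 1 member passed, against 1.11% of the genes tested. This was Mir450-2, with a log2 ratio of -1.03 (95% interval -1.56 to -0.53) and an adjusted p of 8.08e-05 in the exact test. The difference rests on 48 counts in replicate 2 and 105 in replicate 1. When the counts of Mir450-1 and Mir450-2 were summed, to 168 and 254, the log2 ratio was -0.50 (-0.79 to -0.21), with an adjusted p of 0.00160 in the exact test, and no member then passed both thresholds.

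**Figure D2:**
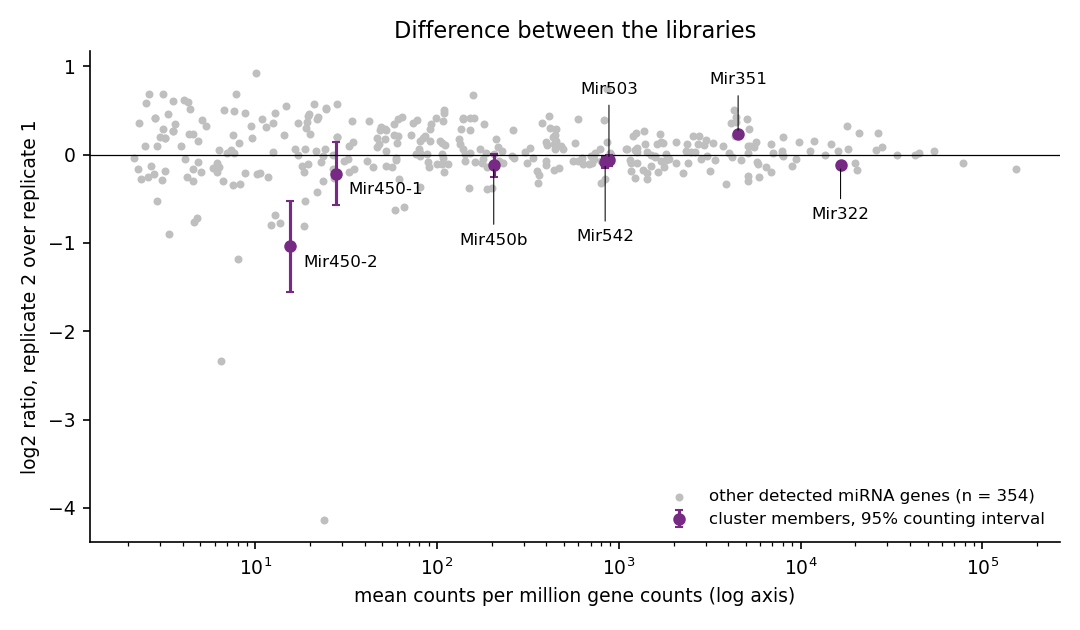
Each point is a detected miRNA gene, with its mean CPM on a log axis and the log2 ratio of replicate 2 over replicate 1. Members are purple with 95% counting intervals, and the other 354 genes are grey. Mir351 sits above 0 at 0.23, the other 6 members lie below 0, and Mir450-2 is the farthest at -1.03.

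When each library was scaled to the total of the 7 members, a choice made after seeing the data, Mir351 stood at 0.28 (95% interval 0.25 to 0.30) and Mir322 at -0.07 (-0.08 to -0.06). Mir503 was then at -0.02, Mir542 at -0.04, Mir450b at -0.08 and Mir450-1 at -0.17, each with an interval that included 0. Mir450-2 was at -0.98 (-1.51 to -0.48), with an adjusted p of 0.000196 in the exact test, and so fell short of the log2 threshold of 1. Mir322 and Mir351 make up most of the total used for scaling, so a higher share of Mir351 lowers that of Mir322, and their opposite signs on this scale are not separate observations. For Mir503 and Mir542, the neighbours of Mir351 on either side, counting error covered an equal share in both libraries.

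Cell type markers also differed between the libraries in both directions. The 4 mesenchymal genes summed to 15864 CPM in replicate 2, against 14629.5 CPM in replicate 1, and 2 of them, Mir214 and Mir199a-2, were called higher in replicate 2 by the exact test, against 24.7% of genes tested. The 2 smooth muscle genes, at the levels given above, and the endothelial Mir126a, at 19164 CPM in replicate 2, against 21613 CPM in replicate 1, were called lower in replicate 2, against 17.5% of genes tested. Mir375 was also called lower in replicate 2, at a log2 ratio of -0.25. Of the 5 epithelial genes, 1 was called higher and 1 lower. Of the 2 genes of squamous forestomach epithelium, 1 was called higher and 1 lower as well. The part of these differences in the values of Mir351 and Mir322 was not tested.

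Precursors elsewhere in the genome carry the same seeds, so the levels of the leading members were set beside those of their seed relatives. For scale, 1 relative of each is printed with its seed in capitals, from RefSeq on GRCm38.p6.
miR-15a-5p, from Mir15a on chromosome 14: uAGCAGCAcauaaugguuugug
miR-125a-5p, from Mir125a on chromosome 17: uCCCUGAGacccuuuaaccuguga
RefSeq listed 11 precursors with an arm of the miR-322-5p seed, of which 10 were among the genes counted and 6 were detected. Mir195b, Mir6342, Mir6353 and Mir6419 had 0 counts, and Mir497 is not analysed here as a gene of its own.

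Mir322 held most of the counts of the precursors with an arm of its seed. Counts do not tell the arms apart, so this is not a share of reads that carry the seed. The share of Mir322 was 70.9% in replicate 2 (95% interval 70.6 to 71.2) and 73.7% in replicate 1 (73.4 to 73.9), out of 105081 and 117326 counts. Mir15a came next at 2169 CPM in replicate 2 and 1960.4 CPM in replicate 1. Mir16-1 had 1688 and 1555 CPM, Mir15b 1512 and 1514 CPM, Mir195a 689 and 735 CPM, and Mir16-2 478 and 409.6 CPM (replicate 2 and replicate 1). The arm miR-16-5p occurs in 2 precursors, Mir16-1 and Mir16-2, so whole reads of it were not countable, and as far as the annotated precursors show the share of Mir322 is an upper limit.

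Mir351 was matched in level by a precursor of the same seed on another chromosome. Of 6 precursors with the miR-351-5p seed, all were counted and 4 were detected. Mir351 held 41.8% of their counts in replicate 2 (95% interval 41.4 to 42.2) and 42.7% in replicate 1 (42.3 to 43.2). Mir125a stood at 5005 CPM in replicate 2 and 3876 CPM in replicate 1, and the log2 ratio of Mir351 over it was -0.03 in replicate 2 and 0.11 in replicate 1. The pair did not differ beyond the spread between libraries. Mir125b-2 had 903 CPM in both libraries and Mir125b-1 had 909 and 821 CPM, and they share the whole arm miR-125b-5p, so the share of Mir351 is also an upper limit in the same sense.

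**Figure D3:**
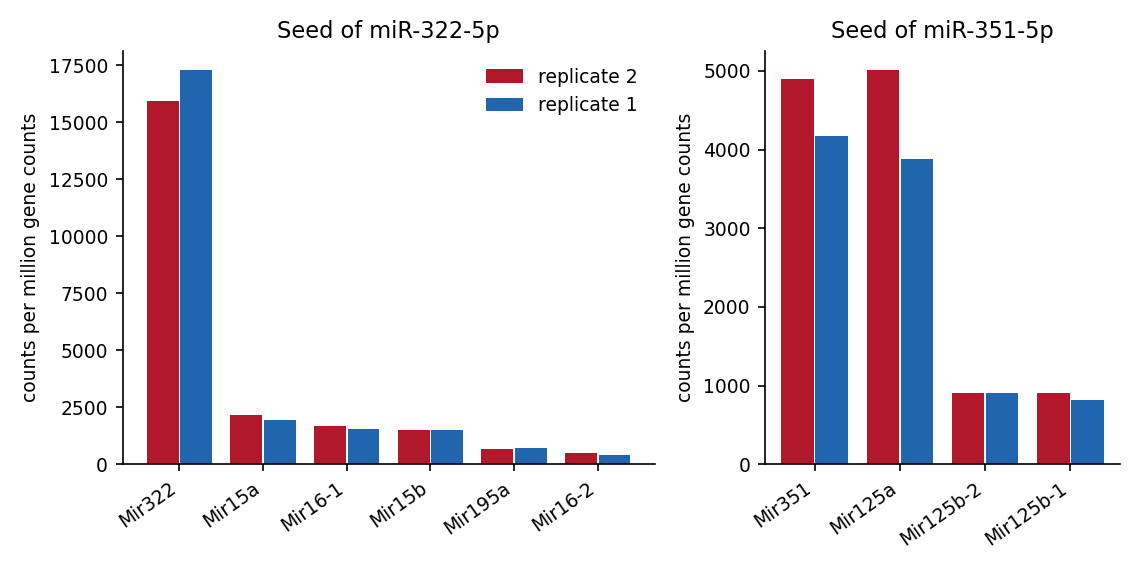
Bars give the CPM of the detected precursors with the seed of miR-322-5p (left panel) and of miR-351-5p (right panel), replicate 2 in red left of replicate 1 in blue. Mir322 stands above every relative in its panel, at 15917 and 17271 CPM against at most 2169 CPM, while Mir351 and Mir125a are level with each other.

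The relatives gave log2 ratios of replicate 2 over replicate 1 that can be read beside those of the members. With the seed of miR-322-5p, Mir15a had 0.15, Mir16-1 0.12 and Mir16-2 0.22, and Mir15b had -0.002 and Mir195a -0.09. With the seed of miR-351-5p, Mir125a had 0.37 (95% interval 0.34 to 0.40), Mir125b-1 had 0.15 and Mir125b-2 had -0.001. Mir351 and Mir125a were both higher in replicate 2, and Mir322 and Mir15a went opposite ways.

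On the X chromosome, 120 miRNA genes were counted and 38 detected, and the cluster held 48.9% of their counts in replicate 2 (95% interval 48.7 to 49.1) and 50.6% in replicate 1 (50.4 to 50.8). Mir322 alone made up 35.7% ± 2.10 (SD, n = 2). After Mir322, the most abundant X-linked genes were Mir652, with 37101 counts in replicate 2 and 39660 in replicate 1, Mir98, with 24241 and 25604, and then Mir351. The Mir106a to Mir363 cluster, an X-linked paralogue of Mir17hg, summed to 139 and 120.5 CPM over 6 genes, all detected. Arms that its genes, such as Mir19b-2 and Mir92-2, may share with Mir17hg were not looked for, so that sum covers countable reads alone.

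Of 13 miRNA clusters in the whole table, formed by chaining genes of 1 strand within 10000 nt and keeping those with 3 or more detected genes, this one ranked 4th by summed level. Above it were the clusters led by Mir411 on chromosome 12, Mir17 and Mir429. It also ranked 4th by the fold between its highest and lowest detected gene, 1062-fold, beside 1088-fold for Mir17hg. These folds are ratios of mean levels. By library, Mir322 over Mir450-2 was 1552-fold in replicate 2 and 823-fold in replicate 1, and 1130-fold from the mean log2 ratio. The order of the cluster against Mir17hg is therefore not settled. The 1062-fold rests on Mir450-2, whose count is a lower limit if each read was placed at its own precursor. Without the copies Mir450-1 and Mir450-2, a choice made after seeing the data, the fold between the highest and lowest member, Mir322 over Mir450b, was 80.9, which ranked 7th of 13. The other clusters, Mir17hg among them, kept all their detected genes in that ranking. The share of the leading gene, 71.8% for Mir322, was second to the 96.7% of Mir23a in its own cluster. Mir429 was close behind, with 71.0% of its own cluster, and these shares are of mean levels alone. The share of Mir322 ranked 4th with chaining within 50000 nt and 3rd within 3000 nt. Shared arms were not looked for across the other clusters, where copies such as Mir24-2 and Mir19b-1 were the lowest genes of those led by Mir23a and Mir17. The folds, shares and ranks of all clusters therefore describe countable reads alone.

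**Figure D4:**
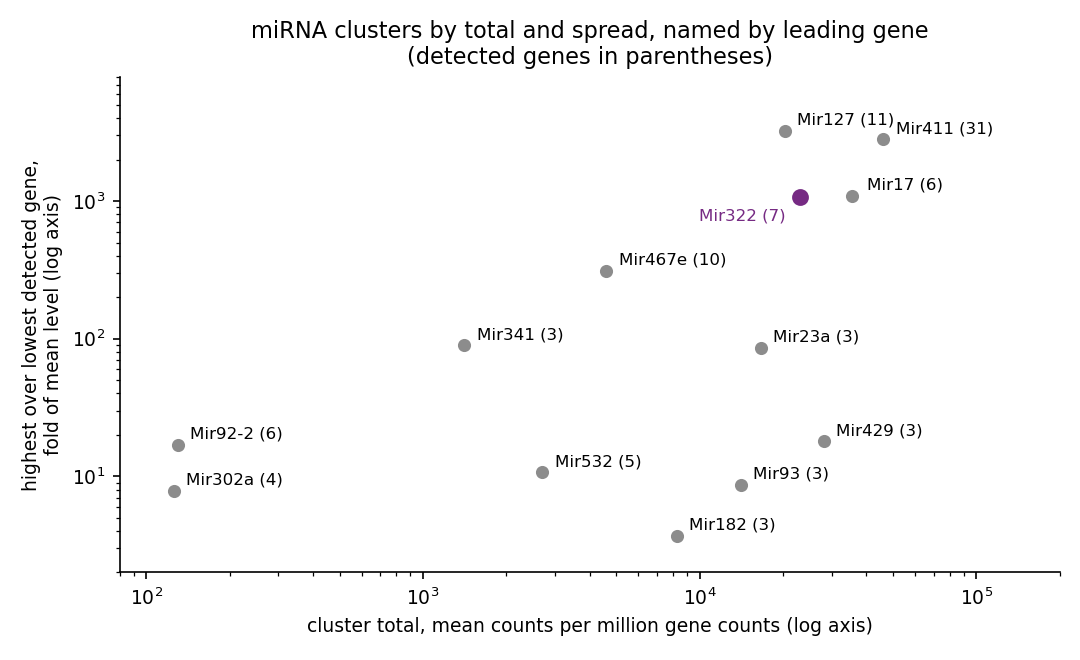
Each point is a chained miRNA cluster, with its summed mean CPM and the fold between its highest and lowest detected gene, both on log axes, named by its leading gene. The cluster led by Mir322, in purple, lies at 23099.9 CPM and 1062-fold, close to the Mir17 cluster.

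The detected genes outside the cluster with levels nearest to Mir322, by Euclidean distance of log2(CPM + 1) over the 2 libraries, were Mir23a at a distance of 0.133, Mir99b at 0.232 and Mir214 at 0.307. Mir23a had 16308 CPM in replicate 2, against 15804 CPM in replicate 1. With 2 libraries, this likeness is one of level and not of a pattern across conditions.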

How the data were processed

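The authors deposited counts per gene as whole numbers, 1 table per library, made on mm10 with the GENCODE M4 annotation per the file text that accompanies them. No source used here names the aligner or the counting program. The 1st count column, both strands, was used, and the strand columns added up to it for every gene. The 4 lines that name no gene were left out: as a share of all reads, those unmapped were 13.0% ± 0.72 (SD, n = 2), those at several places 27.6% ± 0.28, those outside genes 2.41% ± 0.12 and those ambiguous 0. Symbols came from GENCODE M21 by identifier, for 1894 of 1973 genes. CPM used total gene counts. Tests were exact binomial tests in scipy 1.17.1, checked on simulated data, with scaling alternatives from edgeR 4.0.16 and DESeq2 1.42.0, since 1 group of 2 samples gives their models no contrast. Genes named are all members, up to 4 seed relatives of highest level, listed families and markers, the 3 genes nearest to Mir322 and up to 3 other X-linked genes. Relatives at 0 and the leading genes of other clusters were named after their values were seen. The members and lists were chosen with earlier results of these data known.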

Additional observations from a re-analysis of the deposited data

How the results depend on the processing

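All 7 members were detected under the other count column, filter and each single library, and those tested kept the sign of their log2 ratio under each scaling, column, filter and summing run. With the own-strand column the cluster total was 23751 CPM, and per 1000000 counts without the 5 most abundant genes it was 36783. The median member log2 ratio was -0.17 with edgeR's TMM factors, -0.21 with DESeq2's size factors, -0.17 without the 5 most abundant genes and -0.10 with Mir450-1 and Mir450-2 summed. The median of all genes tested was -0.017, -0.055, -0.013 and 0.037 in the same order, against 0.035 in the main run. The scaling thus moved all genes and not the members alone. With each of these 3 scalings Mir503 and Mir450b passed the adjusted p besides the 4 members given above. Of the 361 genes tested, 168 passed it with TMM factors, 173 with size factors and 166 without the 5 most abundant genes. With the copies summed, 0 members passed both the adjusted p and the log2 threshold in the exact binomial test, while 5 had an unadjusted p under 0.05. In that run 152 of 360 genes passed the adjusted p and 3 passed both thresholds. Counts of all genes by unadjusted p are not given here. Scaled to the cluster's own total, Mir542 no longer passed (log2 ratio -0.04, adjusted p = 0.339 by the exact test), and Mir450-2 had a log2 ratio of -0.98. On that scale 0 members passed both thresholds, while 3 passed the adjusted p and the same 3 had an unadjusted p under 0.05. No count over all genes is given for that scale, so these 3 cannot be set against a background share. The share of Mir322 in its seed family was 69.6% with a seed of bases 2 to 7 and 70.2% with Mir497 added from the opposite-strand counts of Mir497b, an alternative chosen after seeing the data. By summed level the cluster ranked 5th with chaining within 50000 nt, and by spread it ranked 8th with chaining within 3000 nt, which leaves Mir322, Mir503 and Mir351 in a cluster of their own. By spread it ranked 7th without Mir450-1 and Mir450-2, and by the share of its leading gene it ranked 4th within 50000 nt and 3rd within 3000 nt, alternatives added after seeing the data. Reads mapping to several places limit Mir450-1 and Mir450-2 and could limit Mir450b, and 2 libraries limit every SD.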
